A study of Rattus norvegicus with 311 samples.

Results

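GW7647 at 1 µM was compared with vehicle in rat liver cell cultures sampled on day 7 after plating. Libraries were chosen by their labels for culture, compound, dose and day, which gave 16 of the 311 libraries of the series, 8 with GW7647 and 8 with vehicle. In each treatment 4 libraries came from monocultures, labelled as primary hepatocytes of male Sprague Dawley rats alone. Another 4 came from co-cultures, which by their labels held the hepatocytes together with non-parenchymal liver cells. Monocultures also carried markers of other liver cells, as given below. The cells were bought freshly isolated from a supplier, were grown on collagen-coated multiwell plates in medium with serum and hepatocyte supplements, and carried no genetic change. The compound was given for the last 24 hours before lysis, and vehicle wells are labelled as untreated for the same day. The wells lay on 4 plates numbered 1, 3, 5 and 7, so each culture and plate gave 1 pair of a GW7647 well and a vehicle well, 8 pairs in all. The labels call the 4 wells of a group biological replicates without naming the animals behind them. The p-values therefore reflect only how far these wells differ from each other, and that spread may be technical. RNA was measured with TempO-Seq, in which pairs of detector oligonucleotides are ligated on their target RNA and counted by sequencing, so that each value belongs to a probe.

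GW7647 is a synthetic agonist of PPAR-alpha, a nuclear receptor that is abundant in hepatocytes and is activated by fatty acids. With its partner RXR the receptor binds direct repeats of a short hexamer in DNA and switches on genes for fatty acid uptake, activation and oxidation in peroxisomes, mitochondria and the endoplasmic reticulum. In rodent liver its agonists are known for peroxisome proliferation and for strong induction of the Cyp4a enzymes, which hydroxylate fatty acids at their far end.

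At the threshold of an adjusted p under 0.05, 1 of the 12123 probes tested rose with GW7647, which is 0.00825% of them, and 0 fell, which is 0% (edgeR quasi-likelihood test with culture and plate as blocks, Benjamini-Hochberg adjustment). The probe that rose belongs to Cyp4a2, an omega-hydroxylase of fatty acids. At an unadjusted p under 0.05, 93 probes were higher, or 0.767%, and 254 were lower, or 2.1%, and DESeq2 called 12 higher and 4 lower. Of the 10 probes with the smallest p, 8 belong to listed PPAR-alpha target genes, and all 10 had a log2 fold change above 0. The lists were chosen with earlier results of these data known. No probe had GW7647 and vehicle libraries that did not overlap at all (0%). The count of 1 probe higher became 0 without plate as a block, with a block for each culture and plate and with the cultures of a plate and treatment summed. It also became 0 without plate 3, 5 or 7 and without most of the single libraries.

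Total counts ran between 3126430 and 9413868 in GW7647 libraries and between 4118609 and 8784797 in vehicle libraries. GW7647 libraries detected 10864 to 15269 probes and vehicle libraries 13281 to 14910. The lowest numbers were 10864 in the plate 1 monoculture and 11512 in the plate 1 co-culture with GW7647. The hepatocyte marker sum had a lowest, median and highest value of 5808, 19060 and 70050 CPM (counts scaled to a common library size) with GW7647 and 4694, 17420 and 26430 CPM with vehicle. The stellate and mesenchymal sum was 1223, 9788 and 28630 CPM with GW7647 and 2221, 6846 and 27570 CPM with vehicle, with monocultures included. In the GW7647 monocultures of plates 1, 3, 5 and 7 it was 14730, 4500, 28630 and 1223 CPM. The GW7647 co-cultures had 14940, 4846, 18110 and 3076 CPM. With vehicle the monocultures had 5581, 2221, 17290 and 3907 CPM and the co-cultures 6504, 11750, 27570 and 7189 CPM. Monocultures thus carried these markers too, on plate 5 with GW7647 above the co-culture. Macrophage marker sums lay between 217.3 and 3169 CPM with GW7647 and between 569.8 and 2606 CPM with vehicle. In the GW7647 monocultures of plates 1, 3, 5 and 7 they were 3169, 1600, 1624 and 217.3 CPM. The GW7647 co-cultures had 2466, 1436, 1380 and 612.2 CPM. With vehicle the monocultures had 1022, 656.8, 882.5 and 569.8 CPM and the co-cultures 1337, 1371, 2606 and 1880 CPM. Endothelial marker sums lay between 34.9 and 303.8 CPM with GW7647 and between 45.1 and 417.8 CPM with vehicle. Cholangiocyte and progenitor marker sums lay between 1531 and 2180 CPM with GW7647 and between 770.3 and 2736 CPM with vehicle. The lymphocyte, neutrophil and erythroid sum lay between 4.92 and 93.8 CPM with GW7647 and between 16.7 and 53.9 CPM with vehicle, and Cd79a, Gzmb, Klrb1, Mpo and Ms4a1 were at 0 in all 16 libraries. These sums overlap between treatments, and their part in the results was not tested. In bulk wells, fewer cells of a type and less RNA per cell cannot be told apart.

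The library labelled GW7647 1 µM, co-culture, plate 1 stood apart from its label. Its Cyp4a2 value was 35.2 CPM, while the vehicle well of that culture and plate had 43.1 CPM, the 0.01 µM well 696.2 CPM and the 0.1 µM well 1209 CPM. Fabp1 on that plate had 11.4 CPM in vehicle, 867.1 CPM at 0.01 µM, 2513 CPM at 0.1 µM and 57.1 CPM in the library labelled 1 µM, which for this gene lay above vehicle but below both lower doses. Ehhadh had 3.04, 56.2, 245.2 and 2.80 CPM in the same order of wells. Why this well was low was not tested, and the library was kept under its label. Without it, 3 probes rose with an adjusted p under 0.05 (edgeR), of Cyp4a2, Fabp1 and Cyp4a1, and 0 fell. The library was singled out by low values of such genes. Results without it, here and below, are therefore a description and no independent support. Not all target lists were low in it. Its mean log2 difference from vehicle was 0.30 over all target probes, 0.71 for mitochondrial fatty acid oxidation and -0.74 for omega-hydroxylation.

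Cyp4a2 (probe 32530) had 801.4, 219.4, 120.1 and 62.7 CPM with GW7647 in the monocultures of plates 1, 3, 5 and 7, and 35.9, 138.7, 110.8 and 50.8 CPM in the co-cultures. With vehicle it had 35.3, 10.0, 11.4 and 8.58 CPM in the monocultures and 43.4, 2.88, 7.17 and 5.22 CPM in the co-cultures. GW7647 was higher in 7 of 8 pairs, the exception being the plate 1 co-culture, and 7 of the 8 GW7647 libraries exceeded the highest vehicle library. The means were 192.5 ± 252.9 CPM with GW7647 and 15.5 ± 15.1 CPM with vehicle (SD, n = 8 each). The log2 fold change was 3.65 ± 0.48 (SE, edgeR quasi-likelihood test, adjusted p = 0.0209). The edgeR adjusted p was 0.457 without plate as a block, 0.629 with a block for each culture and plate and 0.641 with the 2 cultures summed, at log2 fold changes of 3.36, 3.58 and 3.73. Wells of the same plate and treatment deviated together across cultures (median correlation of deviations 0.499). The log2 fold change was 3.91 without the plate 1 co-culture library labelled 1 µM, which was chosen by its low values (edgeR adjusted p = 7.80e-05). It was 3.43 without the plate 1 monoculture with GW7647 (edgeR adjusted p = 0.343) and between 3.26 and 3.90 with 1 plate left out (0.00104 to 1.00). The rat genome holds a near-identical gene, Cyp4a3, which had no probe under that name among those counted, so reads of the pair may be shared. A second probe of the gene (8426) had 2.07, 11.8 and 72.5 CPM as its lowest, median and highest value with GW7647 and 0, 1.67 and 5.16 CPM with vehicle. It was higher in 8 of 8 pairs at a log2 fold change of 3.43 ± 0.58 (edgeR adjusted p = 0.139). Of all probes tested, 1.34% were higher in at least 7 of 8 pairs and 0.148% in 8 of 8.

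The promoter of Cyp4a2 is shown because it is the gene that passed the test. That of Fabp1 was added after its values were seen, because its fold change was the highest among the 10 probes with the smallest p. Both windows run from 250 bases before to 50 bases after the annotated start and are RefSeq sequence of GRCr8. Capitals mark the best match to the receptor's motif, 2 copies of AGGTCA in the same direction with 1 base of any kind between them, searched on both strands with up to 3 mismatches in the copies. The Cyp4a2 window is chr5:134170859-134171158 on the minus strand, and the Fabp1 window is chr4:104749090-104749389 on the plus strand.
Cyp4a2: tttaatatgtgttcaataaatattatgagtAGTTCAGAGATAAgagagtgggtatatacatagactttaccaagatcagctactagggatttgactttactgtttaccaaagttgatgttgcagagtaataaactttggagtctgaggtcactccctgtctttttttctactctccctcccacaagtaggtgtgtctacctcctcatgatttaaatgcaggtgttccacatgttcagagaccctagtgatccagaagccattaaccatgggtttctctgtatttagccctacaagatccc
Fabp1: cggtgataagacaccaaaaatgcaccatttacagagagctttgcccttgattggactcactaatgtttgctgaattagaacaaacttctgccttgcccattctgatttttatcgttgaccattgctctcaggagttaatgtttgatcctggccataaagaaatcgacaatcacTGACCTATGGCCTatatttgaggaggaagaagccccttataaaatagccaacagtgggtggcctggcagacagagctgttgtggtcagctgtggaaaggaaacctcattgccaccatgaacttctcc
The Cyp4a2 match has 3 mismatches and lies at positions -220 to -208 on the gene's strand, and 24.9% of 33469 rat promoter windows hold a match that close. The Fabp1 match has 1 mismatch and lies at -77 to -65 on the opposite strand, and 0.439% of all windows hold one that close. Among tested PPAR-alpha target genes, 95 had a window, of which 5 (5.26%) held a match with at most 1 mismatch and 12 (12.6%) with at most 2, against 3.77% of all windows with at most 2. For target genes 1 window per gene was counted, while the share of all windows counts every window, so the units differ. Of the target genes higher at an unadjusted p under 0.05, 23 had a window, of which 3 (13%) held a match with at most 1 mismatch and 6 (26.1%) with at most 2. These genes were set by their values, so the shares are a description without a test. The closest matches among them, apart from Fabp1, were the following, each printed on the gene's strand and in capitals throughout because the whole string is the match.
Acadvl: AGGTCAGTGGTCA
Acot4: AGACCTCTGACCT
Cat: AGGTCAGAGAGCA
Crat: AGGACACCGGTCA
Slc27a2: TGACCTTTGAGAT
Acadvl and Acot4 have 1 mismatch, and Cat, Crat and Slc27a2 have 2. Those of Acot4 and Slc27a2 are on the opposite strand. The Acadvl match lies at -17 to -5, that of Acot4 at -13 to -1, that of Cat at -169 to -157, that of Crat at -223 to -211 and that of Slc27a2 at -76 to -64.

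Fabp1, the liver fatty acid binding protein that carries fatty acids through the cytosol, had 2143, 3974, 269.7 and 17.9 CPM with GW7647 in the monocultures of plates 1, 3, 5 and 7 and 58.3, 701.6, 151.5 and 21.3 CPM in the co-cultures. With vehicle it had 23.1, 16.7, 7.71 and 4.83 CPM in the monocultures and 11.5, 22.4, 10.7 and 5.10 CPM in the co-cultures. Every pair was higher with GW7647, but the plate 7 values of 17.9 and 21.3 CPM lay within the vehicle range, so the groups overlapped. The log2 fold change was 4.63 ± 0.79 and did not pass (edgeR adjusted p = 0.139). It passed at 4.91 without the plate 1 co-culture library labelled 1 µM (edgeR adjusted p = 0.0394).

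Cyp4a1, another fatty acid omega-hydroxylase, had 92.2, 401.8, 44.95 and 94.0 CPM with GW7647 in the monocultures of plates 1, 3, 5 and 7 and 4.43, 334.2, 44.5 and 38.0 CPM in the co-cultures. With vehicle it had 13.5, 27.8, 5.14 and 5.46 CPM in the monocultures and 21.8, 12.7, 4.07 and 3.73 CPM in the co-cultures. It was higher in 7 of 8 pairs and lower in the plate 1 co-culture. The log2 fold change was 3.17 ± 0.56 (edgeR adjusted p = 0.15), and it was 3.54 without the plate 1 co-culture library labelled 1 µM (edgeR adjusted p = 3.63e-04). Of the 7 probes tested on the omega-hydroxylation list, 3 were higher at an unadjusted p under 0.05, against 0.767% of all probes, and 0 were lower. The higher ones were those of Cyp4a2 (32530 and 8426) and Cyp4a1. Probe 8425 of Cyp4a2 was not among the 7 tested.

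**Figure D1:**
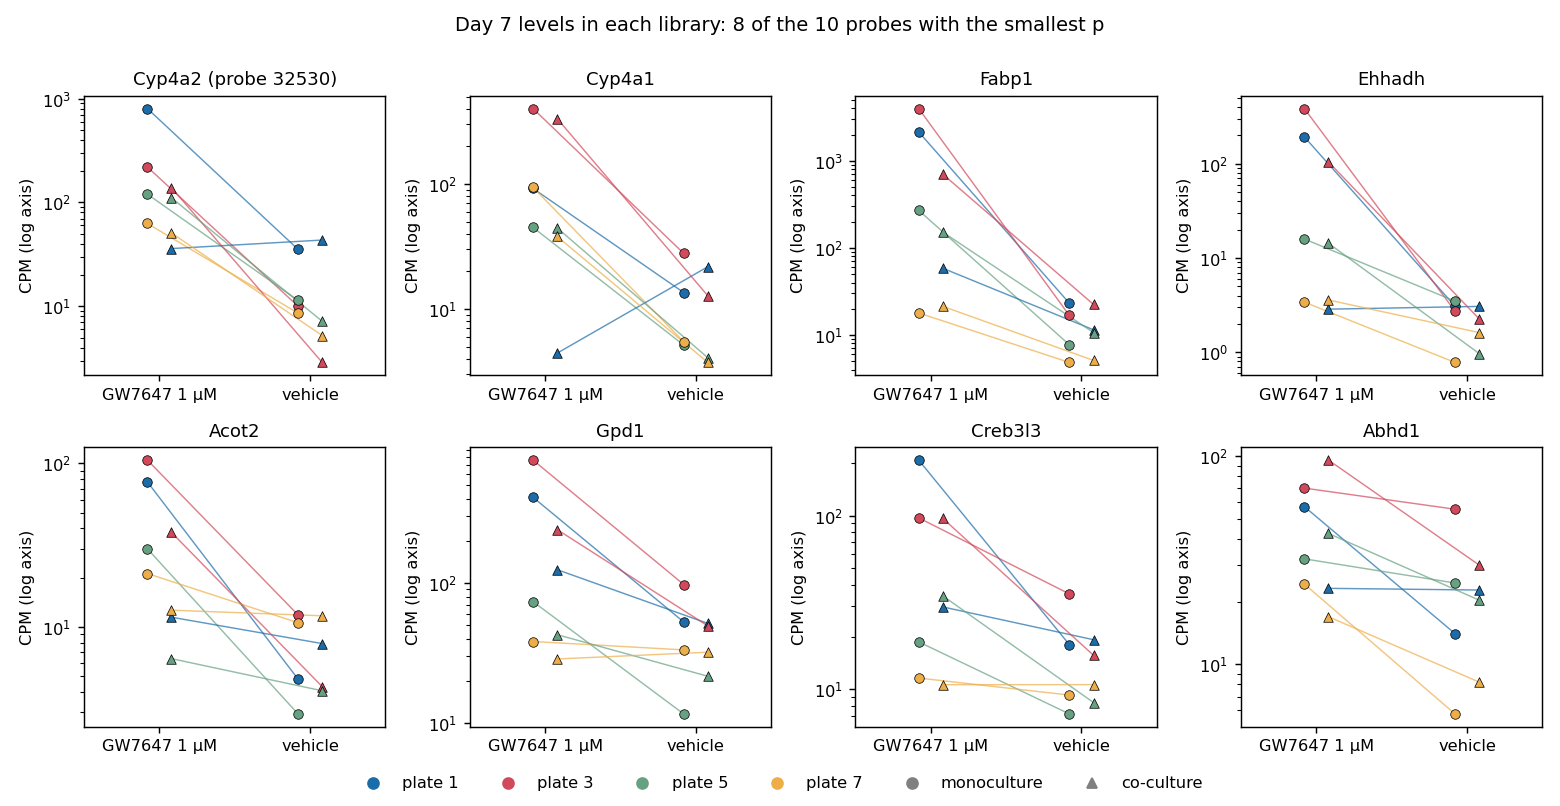
CPM on a log axis in each library with GW7647 1 µM (left) and vehicle (right), for 8 of the 10 probes with the smallest p (the second Cyp4a2 probe, which has a value of 0, is among those not drawn). Points are single libraries, colour is the plate, circles are monocultures, triangles are co-cultures, and lines join the wells of 1 culture and plate. Cyp4a2 lies at 35.9 to 801.4 CPM with GW7647 and at 2.88 to 43.4 CPM with vehicle, and the plate 1 co-culture line slopes the other way.

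Peroxisomal beta-oxidation shortens very long fatty acids and hydrogen peroxide is its by-product. Of its 17 probes tested, 9 were higher at an unadjusted p under 0.05 and 0 were lower, with a median log2 fold change of 0.67 against -0.06 over all probes tested. Over all probes 0.767% were higher and 2.1% lower at that level, which also stands beside the list counts below. Ehhadh, the bifunctional enzyme with hydratase and dehydrogenase activity, had a lowest, median and highest value of 2.86, 15.1 and 384.9 CPM with GW7647 and 0.780, 2.49 and 3.49 CPM with vehicle. Its 3 highest libraries, 384.9, 192.7 and 104.6 CPM, were the monocultures of plates 3 and 1 and the plate 3 co-culture. The log2 fold change of Ehhadh was 3.83 ± 0.81 in 7 of 8 pairs (edgeR adjusted p = 0.656). Others with an unadjusted p under 0.05, named after their values were seen, included those of Acot4, Acaa1b, Cat, Crat, Crot, Eci2 and Slc27a2. Among them Slc27a2, which activates very long chain fatty acids, had a log2 fold change of 1.46 ± 0.43, and Cat, which breaks down hydrogen peroxide, one of 0.94. Of 12 probes for peroxisome biogenesis, 1 was higher at an unadjusted p under 0.05, Pex11a, which acts in peroxisome division, and the list's median was 0.07.

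In mitochondria, 3 of 16 fatty acid oxidation probes were higher at an unadjusted p under 0.05, those of Acaa2, Acadvl and Cpt1b, and 0 were lower, with a median log2 fold change of 0.70. Cpt1a, which admits long-chain fatty acids to the mitochondrion, had 33.0, 66.4 and 178.0 CPM with GW7647 and 24.1, 39.96 and 68.6 CPM with vehicle. Its log2 fold change was 0.74 ± 0.36, with 5 of 8 pairs higher (edgeR unadjusted p = 0.0601, adjusted p = 0.994). Acaa2, the thiolase of the last step, had 1388, 1821, 291.3 and 121.2 CPM with GW7647 in the monocultures of plates 1, 3, 5 and 7 and 213.3, 529.9, 230.3 and 119.7 CPM in the co-cultures. Its vehicle libraries lay between 104.9 and 195.8 CPM, so both plate 7 libraries with GW7647 were within the vehicle range. The log2 fold change was 1.41 ± 0.46, with 6 of 8 pairs higher (edgeR adjusted p = 0.994).

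Among 11 probes of ketogenesis and the fuel switch, 6 were higher at an unadjusted p under 0.05, among them those of Acat1, Fgf21, Gk, Gpd1 and Pdk4, and 0 were lower, with a median of 0.69. Pdk4, which holds back glucose oxidation by phosphorylating pyruvate dehydrogenase, lay between 0 and 24.9 CPM with GW7647 and between 0.546 and 2.13 CPM with vehicle. Its log2 fold change was 2.32 ± 0.87, with 6 of 8 pairs higher. Fgf21, a hormone that the liver releases in fasting, had 6.72, 36.6 and 133.5 CPM with GW7647 and 1.94, 19.5 and 41.8 CPM with vehicle, with a log2 fold change of 1.23 ± 0.36 in 7 of 8 pairs. Gpd1, which links glycolysis and glycerolipid synthesis, was among the 10 probes with the smallest p at 1.66 ± 0.40 (edgeR adjusted p = 0.994). It had 28.6, 99.0 and 756.5 CPM with GW7647 and 11.6, 41.3 and 97.5 CPM with vehicle.

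Acyl-CoA thioesterases split activated fatty acids back into acid and coenzyme A. Of their 10 probes, 3 were higher at an unadjusted p under 0.05, Acot1, Acot2 and Acot4, against 0.767% of all probes. Acot1, the cytosolic form, had 2.08, 35.8 and 446.3 CPM with GW7647 and 0.182, 0.887 and 4.26 CPM with vehicle, and 5 of the 8 GW7647 libraries exceeded the highest vehicle library. Its log2 fold change of 4.23 ± 1.18 was the second highest among the target genes named, with 8 of 8 pairs higher (edgeR unadjusted p = 0.00276, adjusted p = 0.994). Acot2, its mitochondrial relative, had 6.40, 25.6 and 104.6 CPM with GW7647 and 2.94, 6.35 and 11.8 CPM with vehicle, at 1.99 ± 0.48 in 8 of 8 pairs. Acot1 and Acot2 have similar sequences, and whether their probes share reads was not tested.

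Of 14 probes for fatty acid binding, uptake and activation, 3 were higher at an unadjusted p under 0.05, those of Fabp1, Slc27a2 and Acsl1. Cd36, a membrane transporter of fatty acids, was not among them, with 3 of 8 pairs higher, 4.19, 20.4 and 234.1 CPM with GW7647 and 11.01, 19.99 and 44.9 CPM with vehicle. On the list of lipid droplet proteins and lipases 3 of 12 probes were higher at that level, those of Mgll, Plin2 and G0s2. Plin2, which coats lipid droplets, had 96.5, 226.9 and 778.7 CPM with GW7647 and 86.8, 127.5 and 248.1 CPM with vehicle, at 0.75 ± 0.34 on the log2 scale (edgeR unadjusted p = 0.0452, adjusted p = 0.994). Among lipoprotein genes 1 of 14 probes was higher, that of Mttp, which loads lipid onto nascent lipoproteins, with a median of 0.21. Among the other described targets 1 of 17 was higher, that of Retsat, with a median of -0.04. That list holds Vnn1, a pantetheinase, at 0.54 ± 0.48, with 18.3, 48.1 and 191.8 CPM with GW7647 and 19.8, 33.8 and 60.8 CPM with vehicle.

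The receptors themselves did not pass the test. Ppara had 46.7, 51.6, 19.96 and 23.9 CPM with GW7647 in the monocultures of plates 1, 3, 5 and 7 and 52.4, 55.3, 22.3 and 20.1 CPM in the co-cultures. With vehicle it had 84.4, 94.7, 11.4 and 16.8 CPM in the monocultures and 71.3, 43.4, 10.8 and 10.4 CPM in the co-cultures. In both treatments the libraries of plates 1 and 3 were the high ones and those of plates 5 and 7 the low ones. The log2 fold change of Ppara was 0.17 ± 0.27 (edgeR unadjusted p = 0.541, adjusted p = 0.994), and it was -0.21 without plate as a block. Ppard, the broadly expressed relative, was at 0.31 ± 0.35. Pparg, the fat cell member of the family, was at 0.19 ± 0.43 and -0.56 ± 0.65 for its probes 9538 and 81648, with no library above 4.89 CPM. Of 16 probes for receptors and cofactors 1 was higher at an unadjusted p under 0.05, that of Creb3l3, a liver transcription factor that acts with PPAR-alpha in fasting. Creb3l3 had 10.6, 32.05 and 209.1 CPM with GW7647 and 7.16, 13.1 and 35.3 CPM with vehicle, at 1.65 ± 0.42 in 7 of 8 pairs. Abhd1, an abhydrolase that is on no list, was among the 10 probes with the smallest p, at 1.08 ± 0.26 in 8 of 8 pairs, with 16.9, 37.3 and 95.9 CPM with GW7647 and 5.77, 21.5 and 55.6 CPM with vehicle.

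**Figure D2:**
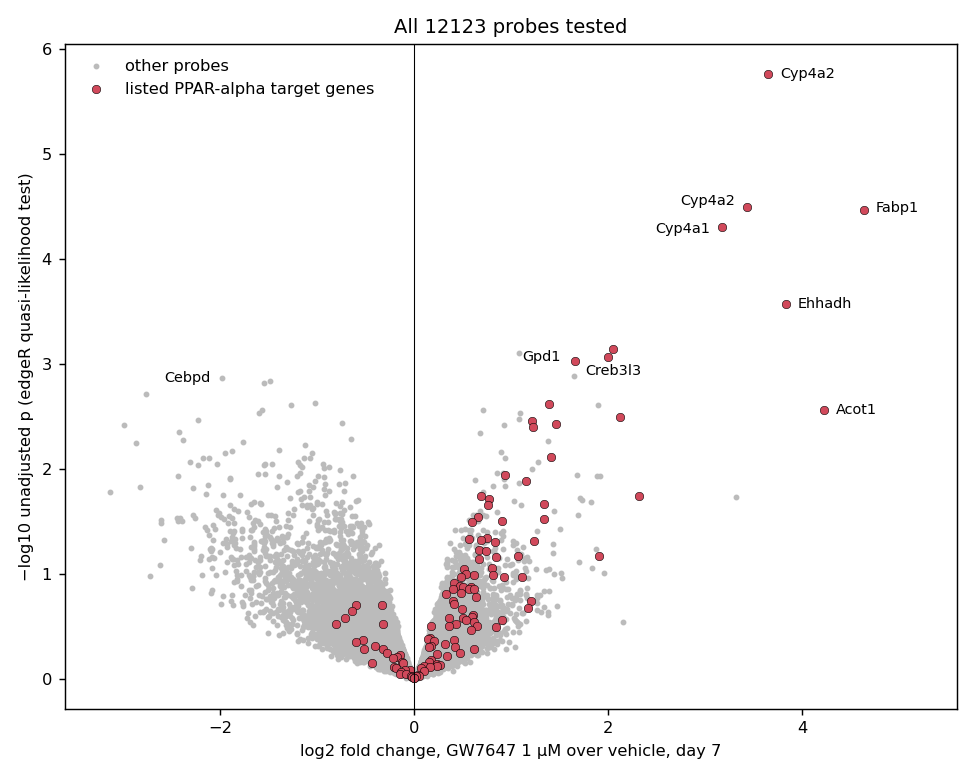
Each point is 1 of the 12123 probes tested, with the log2 fold change of GW7647 over vehicle on the horizontal axis and -log10 of the unadjusted edgeR p on the vertical axis. Red points are probes of listed PPAR-alpha target genes, which hold the upper right corner, with Cyp4a2 (probe 32530) at 3.65 and Fabp1 at 4.63. The lists were chosen with earlier results of these data known.

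Across the 10 target lists, 127 probes passed the filter on low counts, from 147 of 173 listed genes with a probe. Of these 127 probes, 98 had a log2 fold change above 0 and the median was 0.48, against -0.06 over all probes tested. The target median was 0.21 with the number of probes detected as a covariate, 0.29 without plate 3 and 0.75 without plate 7. Over all probes the median was -0.07, -0.07 and -0.09 in these fits. The 20 probes of hepatocyte functions had a median of 0.43, with 13 above 0, and their part in the values of the targets was not tested. At an unadjusted p under 0.05, 31 targets were higher and 0 were lower, while 0.767% of all probes were higher and 2.1% lower. The lists were chosen with earlier results of these data known, so the shares in this paragraph are a description without a test. At least 7 of 8 pairs were higher for 18 of the 127 probes, against 1.34% of all probes, and 8 of 8 for 5, against 0.148%. Fabp1, Acot1, Acot2 and the Cyp4a2 probe 8426 were among those 5. The count of 31 became 28 without the plate 1 co-culture library labelled 1 µM, where 100 of all 12537 probes were higher and 202 lower at that level. It became 12 without plate 3, where 53 of all 12453 probes were higher. Without plate 7 it became 56 of 123, but there 1235 of all 11558 probes were higher and 1227 lower. Listed genes such as Angptl4, Cyp4a3, Hsd17b4 and Apoa4 had no probe under these names among those counted, so they could not be analysed.

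**Figure D3:**
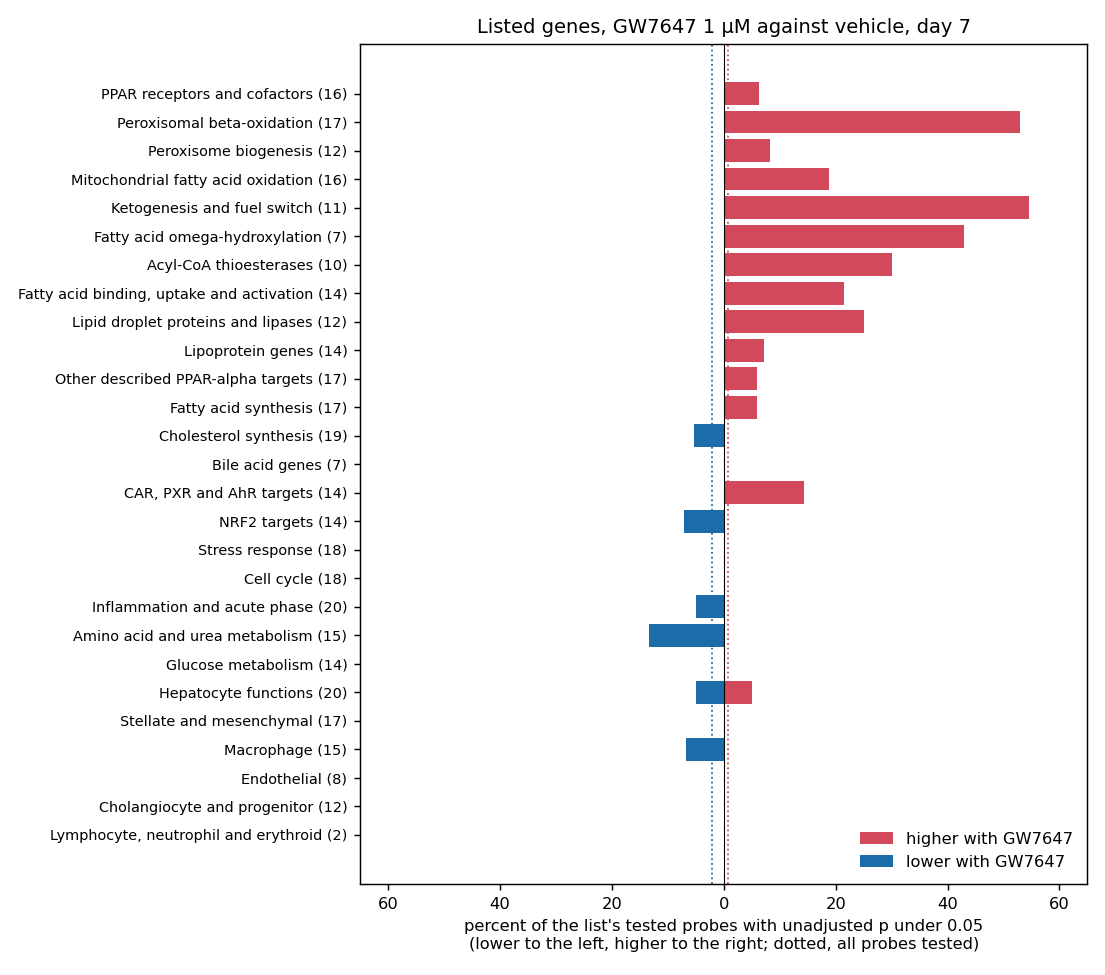
Percent of each list's tested probes (number in brackets) with an unadjusted p under 0.05, lower with GW7647 to the left and higher to the right, and dotted lines for all probes tested at 2.1% lower and 0.767% higher. Peroxisomal beta-oxidation (9 of 17) and ketogenesis and fuel switch (6 of 11) have the longest bars.

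The plates differed in how far these genes moved. The mean log2 difference of GW7647 minus vehicle over the 127 target probes was 0.68, 1.45, 0.88 and 0.01 in the monocultures of plates 1, 3, 5 and 7 and 0.30, 0.73, 0.14 and -0.004 in the co-cultures. Over all probes it was -0.63, -0.15, -0.12 and 0.01 in the monocultures and -0.37, -0.13, 0.02 and 0.01 in the co-cultures. Plate 3 thus had the highest target mean in both cultures over all 127 probes, and on plate 7 the target mean was level with that of all probes. The omega-hydroxylation probes departed from this on plate 7, where their mean difference was 1.78 in the monoculture and 1.96 in the co-culture. Albumin (Alb), a main product of hepatocytes, had 5578, 7790, 1578 and 550.6 CPM with GW7647 in the monocultures of plates 1, 3, 5 and 7 and 8189, 3677, 1253 and 760.5 CPM in the co-cultures. With vehicle Alb had 3336, 4994, 450.1 and 1426 CPM in the monocultures and 2674, 2794, 952.5 and 988.4 CPM in the co-cultures. Plates 5 and 7 were thus lower in Alb in both treatments. Within pairs, Alb was higher with GW7647 in all 6 pairs of plates 1, 3 and 5 and lower in both pairs of plate 7, at 0.49 ± 0.37 on the log2 scale (edgeR unadjusted p = 0.208, adjusted p = 0.994). The mean difference over the 20 hepatocyte function probes was -0.78, 0.72, 1.49 and -0.84 in the monocultures of plates 1, 3, 5 and 7 and 0.72, -0.20, -0.47 and -0.69 in the co-cultures, so it was above 0 in 3 of the 8 pairs. The part of Alb and of these markers in the size of the response was not tested.

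**Figure D4:**
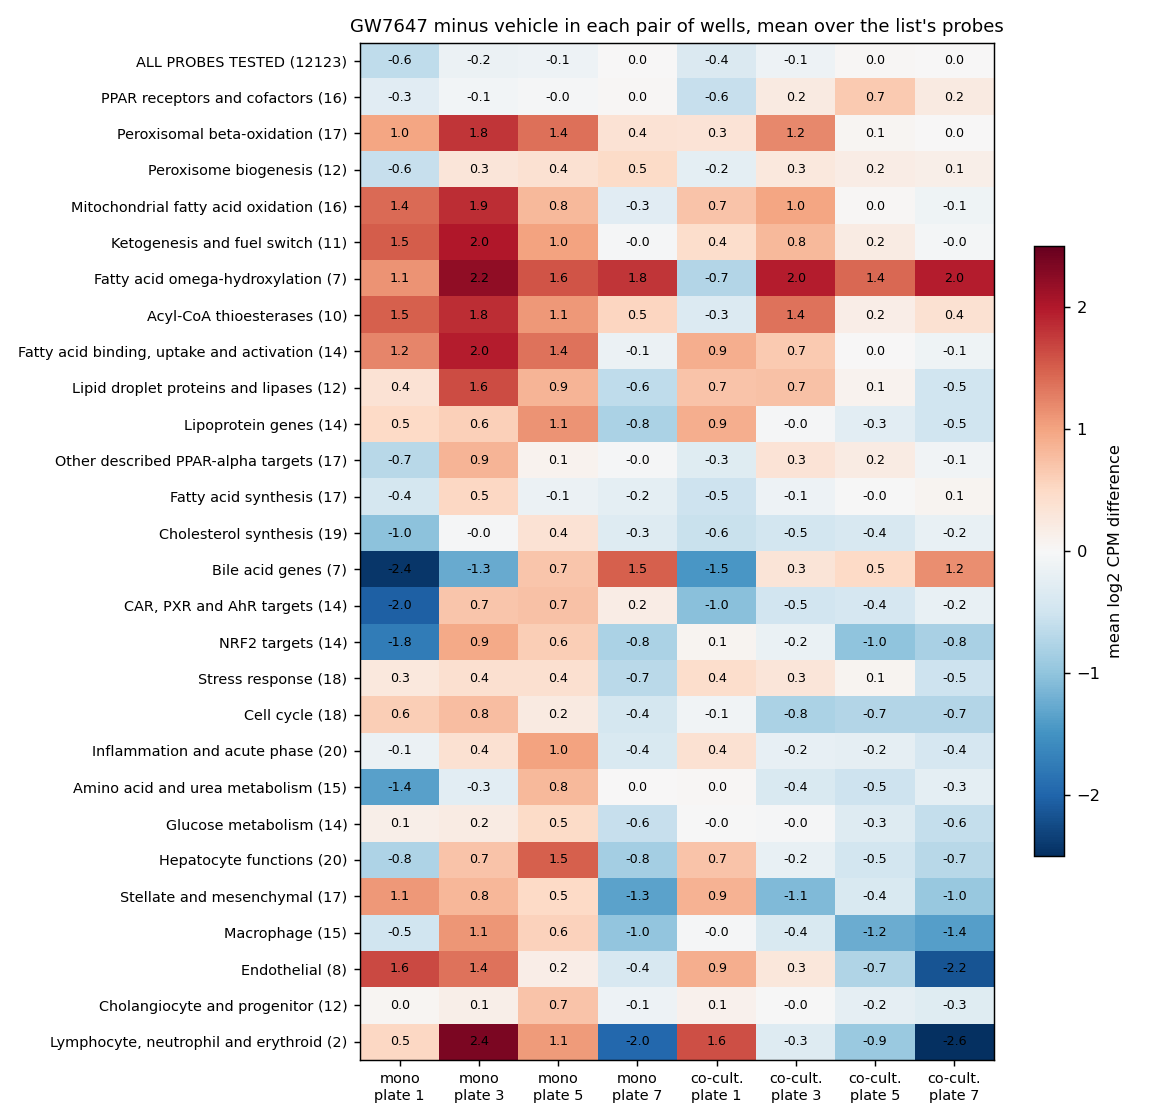
Mean log2 CPM difference, GW7647 minus vehicle, over the probes of each list (rows, number of probes in brackets) in each of the 8 pairs of wells (columns). Omega-hydroxylation is above 1 in 7 of the 8 pairs and below 0 in the plate 1 co-culture. The mean over all 127 target probes is not drawn. Single lists differ in their highest plate. In the monocultures peroxisomal beta-oxidation is at 1.37 on plate 5 and 1.78 on plate 3, and lipoprotein genes are at 1.12 on plate 5 and 0.59 on plate 3.

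Other lists held few probes past an unadjusted p of 0.05. Fatty acid synthesis had 1 of 17 higher, that of Acacb, and cholesterol synthesis 1 of 19 lower, that of Fdps, with a median of -0.27. CAR, PXR and AhR targets had 2 of 14 higher, those of Cyp2b2 and Por, with a median of -0.57. NRF2 targets had 1 of 14 lower, that of Hmox1. Inflammation and acute phase genes had 1 of 20 lower, that of Saa4, and amino acid and urea metabolism 2 of 15 lower, those of Tat, which breaks down tyrosine, and Ass1 of the urea cycle. Among hepatocyte functions 1 of 20 was higher, that of Cyp2e1, and 1 lower, that of Tat, with a median of 0.43, and among macrophage markers 1 of 15 was lower, that of Cd68. Bile acid genes (7 probes), stress response (18), cell cycle (18), glucose metabolism (14), stellate and mesenchymal (17), endothelial (8), cholangiocyte and progenitor (12) and lymphocyte, neutrophil and erythroid markers (2) had 0 in either direction. With at most 2 probes a list and 2.86% of all probes at that level in either direction, these counts are given as values only.

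At an unadjusted p under 0.05, 254 probes were lower and 93 higher, and none of the lower ones passed adjustment. Most alternatives also had more lower than higher probes. Examples are 480 lower and 225 higher with DESeq2 and 327 lower and 173 higher with all day 7 libraries in the fit. The balance turned in others, with 78 lower and 117 higher without plate as a block and 100 lower and 106 higher without plate 1. Without plate 7 there were 1227 lower and 1235 higher, and on day 7 in the fit of all 3 days 184 lower and 276 higher. The following were named after their values were seen. Inhba, which encodes a subunit of activin A, had 0, 9.47 and 28.8 CPM as its lowest, median and highest value with GW7647 and 20.2, 39.1 and 88.6 CPM with vehicle. It was lower in 8 of 8 pairs, as were 0.371% of all probes (3.01% were lower in at least 7), at -2.23 ± 0.64 (edgeR unadjusted p = 0.00339, adjusted p = 0.994). Cebpd, a transcription factor of the acute phase response, had 0.781, 3.66 and 7.97 CPM with GW7647 and 1.82, 15.2 and 26.5 CPM with vehicle. It was at -1.98 ± 0.50 (edgeR adjusted p = 0.994), and DESeq2 placed it past the threshold as 1 of its 4 lower probes. Cd68, a lysosomal protein of macrophages, had 0, 2.15 and 6.57 CPM with GW7647 and 2.73, 9.52 and 18.4 CPM with vehicle. Both of its values of 0 were in the plate 1 libraries with GW7647, which also detected the fewest probes, and the part of that in its difference was not tested.

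Within the single cultures no probe passed, with 0 higher and 0 lower (0%) in monocultures, in co-cultures and for the difference of the responses (edgeR quasi-likelihood test). At an unadjusted p under 0.05 there were 271 probes (2.24%) in monocultures, 270 (2.23%) in co-cultures and 229 (1.89%) for the difference, and DESeq2 called 0 for the difference. Fabp1 was at 5.91 ± 1.02 in monocultures and 3.46 ± 0.91 in co-cultures (log2 fold change ± SE, n = 4 pairs each). Acot1 was at 6.28 ± 1.51 in monocultures and 2.64 ± 1.26 in co-cultures, and Acot2 at 2.98 ± 0.56 and 0.99 ± 0.53 in the same order. Cyp4a2 (probe 32530) had closer values, at 3.87 ± 0.70 in monocultures and 3.41 ± 0.71 in co-cultures. The differences, co-culture minus monoculture, were -2.45 ± 1.18, -3.64 ± 1.73, -1.99 ± 0.74 and -0.46 ± 0.92 for Fabp1, Acot1, Acot2 and Cyp4a2, and did not pass (edgeR adjusted p 0.986 to 0.987). The co-culture values include the plate 1 library labelled 1 µM that stood apart. Monocultures also carried markers of non-parenchymal cells, so the cultures are compared as labelled.

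The lower doses of day 7 share their vehicle libraries with the 1 µM wells, so values are given side by side. In a fit of all 3 doses, 0 of 12679 probes passed at 0.01 µM (0%), 1 rose at 0.1 µM (0.00789%) and 4 rose at 1 µM (0.0315%), with 0 falling at any dose (edgeR quasi-likelihood test). Cyp4a2 (probe 32530) had log2 fold changes of 1.96, 3.41 and 3.75 at 0.01, 0.1 and 1 µM (edgeR adjusted p 0.0152 at 0.1 µM and 0.00314 at 1 µM). The others that rose at 1 µM were Cyp4a1 at 3.36, Fabp1 at 4.73 and the Cyp4a2 probe 8426 at 3.66. Across the doses Cyp4a1 stood at 1.45, 2.71 and 3.36, Fabp1 at 1.83, 3.39 and 4.73 and Ehhadh at 1.01, 3.13 and 4.08. In these genes the estimate was higher at each higher dose. They have some of the smallest p at 1 µM, which favours a high estimate there, and the trend was not tested. The mean log2 difference over 128 target probes did not rise with each dose in every pair. In monocultures it was 0.259, 0.518 and 0.631 on plate 1 and 0.198, 0.691 and 1.415 on plate 3. It was 0.708, 0.218 and 0.857 on plate 5 and 0.027, -0.105 and -0.002 on plate 7. In co-cultures it was 0.882, 0.877 and 0.287 on plate 1 and 0.187, 0.568 and 0.725 on plate 3. It was -0.085, 0.133 and 0.141 on plate 5 and -0.187, 0.07 and 0.013 on plate 7. Of the 128 target probes, 8 were higher at an unadjusted p under 0.05 at 0.01 µM, 21 at 0.1 µM and 33 at 1 µM. Over all probes, 51 (0.402%), 95 (0.749%) and 155 (1.22%) were higher at that level at these doses, and 163 (1.29%), 424 (3.34%) and 654 (5.16%) were lower. Without the 4 co-culture libraries of plate 1 the numbers of probes that rose became 0, 3 and 7.

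Days 1 and 3 had other vehicle libraries than day 7, and 1 fit held all 3 days (12838 probes). On day 3 the 1 µM libraries of both cultures included a well on plate 9, which held no vehicle well. At 1 µM, 35 probes rose (0.273%) and 2 fell (0.0156%) on day 1, 32 rose (0.249%) and 3 fell (0.0234%) on day 3, and 8 rose (0.0623%) and 0 fell (0%) on day 7 (edgeR quasi-likelihood test). Of 132 target probes 26, 23 and 8 rose on days 1, 3 and 7, so all 8 that rose on day 7 were listed targets. Among the day 7 probes were those of Fabp1, Cyp4a2 (32530 and 8426), Cyp4a1, Ehhadh, Acot1 and Acot2. Probe 8425 of Cyp4a2 was not among them. At an unadjusted p under 0.05, 444 (3.46%), 527 (4.11%) and 276 (2.15%) of all probes were higher on days 1, 3 and 7, and 429 (3.34%), 588 (4.58%) and 184 (1.43%) were lower. On day 3 the library labelled 1 µM in the plate 3 co-culture had a Cyp4a2 value of 0 CPM, and the plate 3 monoculture had no 1 µM library. Without that library and the day 7 co-culture library of plate 1, 42, 50 and 9 probes rose on days 1, 3 and 7 and 2, 13 and 0 fell.

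The genes did not all follow the same course over the days. Cyp4a2 (probe 32530) was at 4.16, 6.55 and 3.91 on days 1, 3 and 7, Cyp4a1 at 3.31, 7.84 and 3.43, and Ehhadh at 5.17, 5.56 and 4.41. Fabp1 was at 1.19, 5.15 and 5.39 (edgeR adjusted p 0.846 on day 1 and 5.62e-04 on day 7). Cpt1a was at 2.40, 1.25 and 0.75, and Pdk4 at 4.66, 3.57 and 2.81. Vnn1 was at 2.25, 2.03 and 0.53, and Cd36 at 2.92, 4.37 and 0.59. The test of the difference between day 7 and day 1 called 1 probe lower (0.00779%) and 0 higher (0%), with 199 lower (1.55%) and 196 higher (1.53%) at an unadjusted p under 0.05. That probe was Acot7 (44407), a thioesterase for long-chain acyl-CoA, at -3.32 ± 0.45 (edgeR adjusted p = 8.22e-05). Another probe of the gene (40748) was at -1.37 ± 0.62 and did not pass (edgeR unadjusted p = 0.0321). The response of probe 44407 was 3.88 on day 1 and 0.57 on day 7. On day 1 it had 61.4 to 115 CPM with GW7647 and 3.03 to 12.03 CPM with vehicle, and on day 7 it had 28.4 to 153 CPM with GW7647 and 34.2 to 124 CPM with vehicle, so every vehicle library of day 7 lay above every vehicle library of day 1. For Fabp1 the difference of day 7 minus day 1 was 4.20 ± 0.98 and did not pass (edgeR adjusted p = 0.292).

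**Figure D5:**
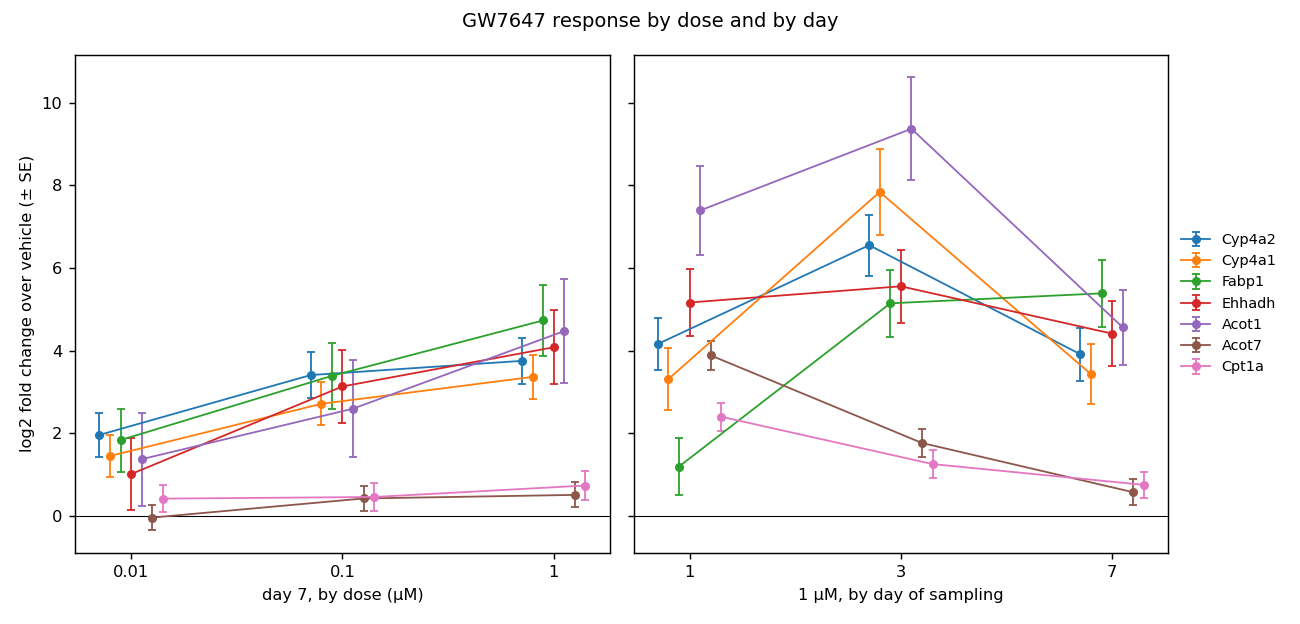
Log2 fold change over vehicle (points, with bars of 1 SE) for 7 probes, by dose on day 7 (left, µM) and by day of sampling at 1 µM (right, days evenly spaced). Cyp4a2 (probe 32530) runs through 1.96, 3.41 and 3.75 with dose, and Acot7 (probe 44407) runs through 3.88, 1.76 and 0.57 over days 1, 3 and 7.

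Gemfibrozil, a fibrate drug that also activates PPAR-alpha, was given at 1000 µM and is set beside GW7647 without a comparison, since dose differs and vehicle libraries are shared. In 7 libraries with gemfibrozil and 8 with vehicle of day 7, 0 of 12082 probes passed (0%), with 257 higher (2.13%) and 617 lower (5.11%) at an unadjusted p under 0.05 (edgeR). Cyp4a2 (probe 32530) was at 1.502 ± 0.27 with gemfibrozil (edgeR adjusted p = 0.254), Acot1 at 2.78 ± 1.02, Acot2 at 2.04 ± 0.68, Ehhadh at 1.79 ± 0.60 and Fabp1 at 0.96 ± 0.82. Of 127 target probes, 12 were higher and 4 lower at an unadjusted p under 0.05.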

How the data were processed

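Whole-number counts per probe were deposited for each well, without normalization, made by the assay's supplier per the labels' protocols. Bowtie is named in the submitters' processing notes, and no source used here gives its version, the genome build or the probe sequences. The table has 22253 probes. Wells were grouped by their labels, and the plate number was taken as the replicate.

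The analysis used edgeR 4.0.16 in R 4.3.3. Probes passed filterByExpr with a minimum count of 10 (12123 probes), libraries were scaled by TMM, and the two-sided quasi-likelihood test had culture and plate as blocks and Benjamini-Hochberg adjustment over all tested probes with a threshold of 0.05. The SE is the size of the log2 fold change divided by the root of F. CPM use TMM-scaled libraries of the fit concerned, and log2 CPM a prior count of 2. DESeq2 1.42.0 and limma 3.58.1 (voom with library weights) were alternatives. Named were probes past the threshold, the 10 with the smallest p, listed genes past the threshold and 16 genes of known relevance, and others are marked where named. Some named genes are not reported here. Members and lists were chosen with earlier results of these data known. Other alternatives were scaling, filter, block, libraries in the fit and each plate left out. Leaving out single libraries, the covariate of probes detected, library weights and summed cultures were added after seeing the data.

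Wells of the same plate and treatment in the other culture deviated together (correlation of deviations 0.089 to 0.876, median 0.499), while wells of the same plate and culture in the other treatment did not do so throughout (median 0.075). The scripts were tested on simulated counts. For 3 co-culture libraries of day 3 the labels give conflicting GW7647 doses, and the description was used. Intervals on counts are not given, and totals limit the precision of probes with few counts.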

Additional observations from a re-analysis of the deposited data

Results flagged for a closer look

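In 10 of 80 groups of 4 libraries (20 probes), the highest library lay apart from the other 3 by Dixon's criterion, applied to CPM. Chance gives this in about 1 group in 20 where values are normally distributed. That was not checked for CPM, and the groups share libraries, so 10 of 80 cannot be weighed against that rate. On plate 3 with GW7647, Cyp4a1 had 401.8 CPM in the monoculture and 334.2 CPM in the co-culture, Ehhadh 104.6 CPM in the co-culture, and Plin2 778.7 CPM and Cd36 234.1 CPM in the monoculture. On plate 1 with vehicle, Cyp4a2 (probe 32530) had 35.3 CPM in the monoculture, where the other 3 libraries had 8.58 to 11.4 CPM, and 43.4 CPM in the co-culture, where they had 2.88 to 7.17 CPM. On plate 5, Pparg (probe 9538) had 3.09 CPM in the co-culture with GW7647 and 3.85 CPM in the monoculture with vehicle, and Pdk4 had 2.13 CPM in the co-culture with vehicle. For Acot7 (probe 44407) the difference of the response, day 7 minus day 1, was -3.32 on the log2 scale and passed its test. Its probe 40748 was at -1.37 and did not pass.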

How the results depend on the processing

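The count of 1 probe higher and 0 lower with GW7647 was 0 and 0 without plate as a replicate block, with a replicate block for each culture and plate, and with the cultures summed. With RLE size factors it was 1 and 0. DESeq2 gave 12 higher and 4 lower, voom with library weights 17 and 2, no filter 2 and 0, all day 7 libraries in the fit 6 and 0, and probes detected as a covariate 4 and 0. Leaving out 1 plate gave 0 to 2 higher, and leaving out 1 library 0 to 3, with 0 lower. The cause of these changes was not tested.

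Cyp4a2 (probe 32530) kept its direction in 29 of 29 alternatives (log2 fold change 3.26 to 4.14) and passed in 11. Its edgeR adjusted p was 0.457 with no replicate block and 0.629 with the replicate block by culture. It was 0.915, 1.00 and 0.126 without plates 3, 5 and 7. With single GW7647 libraries left out it missed the threshold without the monoculture of plate 1 (0.343), 3 (0.0526) or 5 (0.0527) and the co-culture of plate 3 (0.0604), 5 (0.103) or 7 (0.0711). With single vehicle libraries left out it missed without the monoculture of plate 1 (0.0867), 3 (0.136), 5 (0.112) or 7 (0.0809) and the co-culture of plate 3 (0.0585) or 5 (0.0893). Fabp1 and Cyp4a1 passed in 7 of 29 alternatives each.

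The 31 target probes higher at an unadjusted p under 0.05 became 20 with the replicate block by culture, 51 with library weights, 18 with summed cultures, 12 to 56 with 1 plate left out and 21 to 44 with 1 library left out. Over all probes, 93 were higher and 254 lower at that level, which became 58 and 165 with the replicate block by culture, 443 and 999 with library weights, 49 and 85 with summed cultures, and 1235 and 1227 without plate 7. Signs turned for 4 probes. Ppara was at -0.205 with no replicate block and at -0.088 to 0.477 with 1 plate left out (below 0 without plates 5 and 7, at -0.088 and -0.033). Pparg probe 9538 was at -0.031 to 0.409 with 1 plate left out (below 0 without plate 3) and at -0.0087 without the GW7647 monoculture of plate 3. Vnn1 was at -0.0013 with probes detected as a covariate. Cd36 was at -0.134 with the replicate block by culture, at -0.368 with the covariate and at -0.397 to 0.717 with 1 plate left out (below 0 without plate 3). With 1 library left out Cd36 was below 0 without the GW7647 monocultures of plates 3 and 5 (-0.331 and -0.042), the GW7647 co-culture of plate 1 (-0.023) and the vehicle monoculture and co-culture of plate 3 (-0.099 and -0.010). None of these passed in either direction.

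The difference between days called 1 to 3 probes with 1 plate left out, 3 of them without plate 7. Without the co-culture libraries of plate 1, 3 probes rose at 0.1 µM and 7 at 1 µM, and without the libraries in doubt 50 rose and 13 fell on day 3. The counts of 0 in each culture and for the difference of cultures stayed 0 in each alternative run. Libraries with few detected probes limit what can be said of weakly expressed genes on plate 1.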
